A study of Mus musculus with 6 samples.

Results

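The Wnt pathway genes described here are 33 ligands, receptors, antagonists and targets, listed by symbol and measured in mouse sarcoma cell lines that lack the microRNA-processing enzyme Dicer and in heterozygous lines. Each was represented by the probe set with the highest mean over the 6 arrays among those annotated to that symbol alone. This gave a probe set to 32 of the 33 members, out of 18193 genes on the arrays with such a probe set. The TCF/LEF factor Tcf7 had none and is not analysed here. Of the 32, 20 had a mean log2 value of at least 3 and were tested, out of 11425 genes tested in all.

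The arrays compared 3 Dicer null samples with 3 samples heterozygous for Dicer, all of strain C57BL6/J and all grown to confluence in serum-containing medium. Heterozygous cells keep 1 working copy of the gene and null cells none. The labels name no other allele, tumour of origin or method of deletion, and leave unsaid whether the 3 samples of a group come from separate lines or cultures. The p-values therefore measure only the spread between these samples. Values are log2 GCRMA values, a scale on which a difference of 1 is a 2-fold difference, and the 3 arrays per group limit the precision.

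Wnt proteins bind Frizzled receptors and the co-receptors Lrp5 and Lrp6, which stops a complex around Axin and Apc from destroying beta-catenin, so that beta-catenin reaches the nucleus and acts with TCF/LEF factors. R-spondins bind Lgr receptors and remove the ligases Znrf3 and Rnf43, which otherwise clear Frizzled from the cell surface. Dkk proteins, secreted Frizzled-related proteins, Wif1 and Notum act outside the cell and are grouped here as antagonists. What each did to Wnt signalling in these cells was not tested. Wnt5a with the Ror receptors serves a branch that does not need beta-catenin. In mesenchymal cells the pathway is known for its part in the choice between bone and fat lineages.

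Among the members, Dkk2, which binds the Lrp co-receptors and is grouped here with the antagonists, was lower in Dicer null cells, 5.86-fold. It was the single member that passed the test. The R-spondins went apart without passing it: Rspo2 lay lower and Rspo3 higher in each null array than in any heterozygous one. The groups did not overlap in 32.2% of all tested genes either. The heterozygous mean of Rspo3, 2.78, lay under 3, so it was tested only through the null arrays. Beta-catenin itself and Fzd7 differed by less than the spread between arrays. Of the 4 members grouped here as feedback targets of beta-catenin, Axin2, Sp5 and Nkd1 had means below 3 and Nkd2 was just above it. Each member has 1 role here, so targets grouped under another role, such as Dkk1, are not in this count. It therefore does not describe every target among the members. Members of other roles, Lef1, Znrf3 and Notum among them, had means of at least 3 and were tested. Of 15 other known targets, not members, 13 had means of at least 3 and were tested, Myc and Ccnd1 among them. Of these 13, 1 (Ccn5, 7.69%) was called, where 3.46% of all tested genes were. An unadjusted limma p under 0.05 was found for 4 of the 13 (30.8%), against 24.0% of all tested genes. At a Benjamini-Hochberg adjusted p of 0.05, limma's moderated test called 1 of the 20 tested members, 0 higher and 1 lower, where 3.46% of all tested genes were called (1.45% higher, 2.0% lower). A count of 1 is near that background and does not set the members apart.

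The promoter of Dkk2 is shown because Dkk2 was the called member, and those of Dkk1 and Sp5 because both are known targets of beta-catenin that lay at background here. Each line gives the 250 bases before the start site, 5′ to 3′, from RefSeq on GRCm38.p6. Capitals mark CTTTG on either strand (CAAAG on the strand shown), the core of the sites that TCF/LEF factors bind.
Dkk2, chr3:132085042-132085291, plus strand: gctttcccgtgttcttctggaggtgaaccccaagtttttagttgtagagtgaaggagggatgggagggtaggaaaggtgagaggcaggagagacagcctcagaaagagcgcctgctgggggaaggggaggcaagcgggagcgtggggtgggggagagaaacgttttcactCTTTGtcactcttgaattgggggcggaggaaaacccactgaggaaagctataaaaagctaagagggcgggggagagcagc
Dkk1, chr19:30549497-30549746, minus strand: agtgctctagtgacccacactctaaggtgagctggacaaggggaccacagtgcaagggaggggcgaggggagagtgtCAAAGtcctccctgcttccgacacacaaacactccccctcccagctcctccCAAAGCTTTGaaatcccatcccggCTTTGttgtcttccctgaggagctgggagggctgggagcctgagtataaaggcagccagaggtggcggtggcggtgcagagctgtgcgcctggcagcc
Sp5, chr2:70474673-70474922, plus strand: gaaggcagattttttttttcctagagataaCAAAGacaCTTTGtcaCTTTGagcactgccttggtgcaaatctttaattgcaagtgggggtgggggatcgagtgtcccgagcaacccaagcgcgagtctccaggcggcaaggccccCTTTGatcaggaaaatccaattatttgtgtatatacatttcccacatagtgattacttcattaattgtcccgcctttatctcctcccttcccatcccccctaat
The Dkk2 window held the core 1 time, the Dkk1 window 4 times and the Sp5 window 4 times. In Dkk1 a CAAAG and a CTTTG abut. The longer forms CTTTGAT and CTTTGAA, which contain the core, occurred on either strand 0 times for Dkk2 and 1 time each for Dkk1 and Sp5. Of 32 such windows for 22 members with an entry, 17 (53.1%) held the core and 4 (12.5%) a longer form, and of all 32851 windows 48.6% and 7.48% did. A match describes letters in the window only.

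Before the results, some facts of the arrays bear on them. Correlations over the tested probe sets were 0.972 to 0.979 among null arrays, 0.935 to 0.973 among heterozygous arrays and 0.910 to 0.955 between groups. The 2 tested Dicer1 probe sets gave log2 differences of 0.14 and 0.27 (limma adjusted p = 0.693 and 0.573), but the deleted part of the gene is not given in the labels, so these values check nothing. Nr6a1, the gene in the series title, rose by 3.37 on the log2 scale (limma adjusted p = 0.00647). Xist, the RNA of the inactive X chromosome, was at 1.71 in null replicate 3 and between 9.82 and 11.39 in the other 5 arrays. Of the mesenchymal markers 13 of 14 had a mean of at least 3, while 0 of 6 endothelial markers and 1 of 7 leukocyte markers (Cd68) reached it. Of 10 epithelial markers 3 did (Epcam, Krt18, Krt19), with a summed log2 value over the list of 25.07 to 31.69 in null arrays and 23.61 to 36.87 in heterozygous arrays. Of 14 proliferation genes all were above it, with sums of 152.21 to 156.83 in null arrays and 134.89 to 148.05 in heterozygous arrays. These sums did not overlap, but each of the genes was uncalled by limma. Taken singly, Mki67, Top2a, Cdk1 and Rrm2 overlapped between the groups and the others did not. Of 8 skeletal muscle markers 2, and of 4 adipocyte markers 2, had a mean of at least 3. The mesenchymal sums were 141.24 to 148.02 in null arrays and 138.86 to 144.21 in heterozygous arrays, but single markers split. Fap (means 7.95 null, 2.98 heterozygous; called) and Lum (4.98 and 2.16; not called) were higher in null arrays without overlap. Pdgfra and S100a4 were lower without overlap (log2 differences -1.63 and -1.37; not called). The median deviation of the proliferation genes from each gene's mean was lowest, -0.92, in heterozygous replicate 3. Heterozygous replicate 1 alone had Krt18 at 9.02 (at most 2.68 elsewhere) and Acta1 at 7.75 (at most 4.91 elsewhere). The part of proliferation or of these 2 arrays in the members' differences was not tested beyond leaving arrays out. In bulk RNA, fewer cells of a type and less RNA per cell cannot be told apart.

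Among the secreted antagonists, Dkk2 had 9.57, 9.45 and 9.55 in null replicates 1 to 3, against 11.63, 12.41 and 12.18 in heterozygous replicates 1 to 3. The null arrays were close together and all below the heterozygous ones. The log2 difference, null minus heterozygous as throughout, was -2.55 (SE 0.23, 95% interval -3.12 to -1.98; means 9.52 ± 0.06 against 12.07 ± 0.40, SD, n = 3 each; limma adjusted p = 0.0132). Dkk2 has a single probe set. The call was lost when null replicate 2 was left out (limma adjusted p = 0.0658) and when null replicate 3 was (0.0598), with log2 differences of -2.51 and -2.56 there, and held in the other 4 fits that left out an array.

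Sfrp1, a decoy that binds Wnt proteins, had 3.05, 2.14 and 3.47 in null arrays, against 4.09, 4.93 and 7.69 in heterozygous arrays. The groups did not overlap, with the null values around the minimum for testing and heterozygous replicate 3 far above the rest. This gave a log2 difference of -2.68 (SE 0.93; limma adjusted p = 0.161), and -2.40 with values under 3 set to 3. Its second tested probe set differed by -1.99 (SE 0.64; limma adjusted p = 0.138), also without overlap. Leaving out heterozygous replicate 3, which had the highest Sfrp1 value and the lowest proliferation list, brought the difference of the first probe set to -1.62. The part of proliferation in this was not tested.

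Sfrp2, a relative of Sfrp1, had 2.16, 3.38 and 2.01 in null arrays, against 1.97, 6.99 and 7.97 in heterozygous arrays. Heterozygous replicate 1, the array with high Krt18, had the lowest value of all 6, so the groups overlapped. Its log2 difference was -3.13 (SE 1.53; limma adjusted p = 0.279), and -2.86 with values under 3 set to 3. Without heterozygous replicate 1 it was -4.96 and passed (limma adjusted p = 0.024), while without heterozygous replicate 3 it was -1.96 (0.444) and without heterozygous replicate 2 it was -2.45 (0.496). Sfrp2 and the next gene, Dkk3, are given array by array because their spread stood out once the values were seen.

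Dkk3, a divergent Dkk protein that is often silenced in tumours, had 9.36, 5.34 and 10.09 in null arrays, against 7.57, 5.02 and 12.10 in heterozygous arrays. It was high and low within both groups, and replicate 2 was the lowest of each. The log2 difference was 0.03 (SE 2.04, 95% interval -4.90 to 4.97; limma adjusted p = 0.994), so the interval spans large differences in either direction. Its second probe set showed the same order of arrays, with 8.81, 3.83 and 9.29 in null arrays, against 7.20, 3.67 and 11.79 in heterozygous arrays. Only 5 of 11425 tested genes, Dkk3 included, had a range over the heterozygous arrays of at least 7.08, that of Dkk3. Notum, which strips the lipid that Wnt proteins need, differed by -0.78 (SE 0.68; limma adjusted p = 0.536), or -0.63 with that floor, and its highest value, 4.99, was in heterozygous replicate 2. Dkk1 and Wif1 were below 3 in all 6 arrays.

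**Figure D1:**
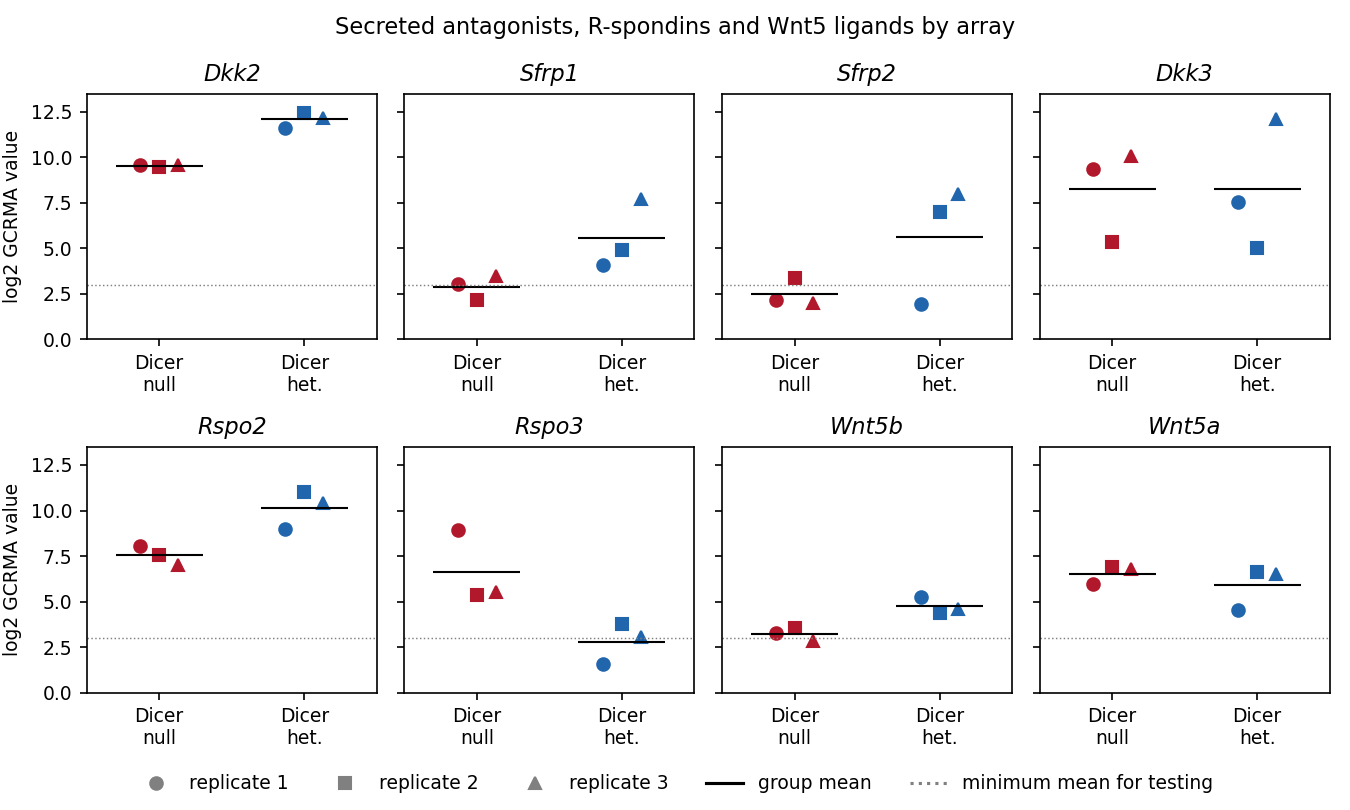
Log2 GCRMA values of 8 members in the 3 Dicer null arrays (red, left) and the 3 Dicer heterozygous arrays (blue, right), with marker shape for replicate number, a black line for the group mean and a dotted line at the minimum mean of 3. Dkk2 lies between 9.45 and 9.57 in null arrays and between 11.63 and 12.41 in heterozygous arrays, while Dkk3 spans 5.02 to 12.10 with no separation.

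The R-spondins pointed in opposite directions. Rspo2 had 8.07, 7.56 and 7.01 in null arrays, against 8.97, 11 and 10.42 in heterozygous arrays. Its groups did not overlap, with heterozygous replicate 1 nearest to the null arrays. The log2 difference was -2.58 (SE 0.56; limma adjusted p = 0.0638), a value that missed the threshold with all 6 arrays and passed it in 1 of the 6 fits that left out an array, that without heterozygous replicate 1 (-3.16; limma adjusted p = 0.031). In these 6 fits the difference ran from -3.16 to -2.15 and the limma adjusted p reached 0.195.

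Rspo3 had 8.91, 5.34 and 5.55 in null arrays, against 1.55, 3.75 and 3.04 in heterozygous arrays. Again the groups did not overlap, and null replicate 1 stood far above the others. The log2 difference was 3.82 (SE 1.07; limma adjusted p = 0.107), 3.34 with values under 3 set to 3 and 2.67 without null replicate 1. Its other probe set had a mean below 3 and was not tested. Lgr5, a receptor for R-spondins and a stem cell marker of the gut, was below 3 in all arrays.

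The other R-spondin receptors, not members, were Lgr4 and Lgr6. Lgr6 had 8.98, 7.80 and 9.10 in null arrays, against 6.91, 6.69 and 6.04 in heterozygous arrays (log2 difference 2.08, SE 0.42; limma adjusted p = 0.0556). Lgr4, named after its values were seen, differed by 1.02 (SE 0.21; limma adjusted p = 0.057). Both were higher in every null array than in any heterozygous array, as were 14.9% of all tested genes, and neither passed the threshold. Of the ligases that R-spondins remove, Znrf3 had 6.99, 7.59 and 8.11 in null arrays, against 5.88, 7.13 and 7.41 in heterozygous arrays. The groups overlapped, with heterozygous replicate 1 the lowest (log2 difference 0.76, SE 0.48; limma adjusted p = 0.391). Rnf43 was below 3 in all 6 arrays.

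Among the Wnt ligands, Wnt5b and Wnt5a were tested, 2 of 6 members. Wnt5b had 3.28, 3.56 and 2.81 in null arrays, against 5.25, 4.36 and 4.60 in heterozygous arrays. The null arrays were all lower, with a log2 difference of -1.52 (SE 0.31; limma adjusted p = 0.057), just outside the threshold. This probe set carries the x suffix, which marks probes that may bind other transcripts. The other Wnt5b probe set, under the minimum for testing, had 2.25, 2.38 and 2.13 in null arrays, against 3.39, 2.39 and 2.84 in heterozygous arrays, where the groups were 0.01 apart.

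Wnt5a, the ligand of the Ror branch, had 5.96, 6.88 and 6.78 in null arrays, against 4.53, 6.65 and 6.52 in heterozygous arrays. The groups overlapped, and heterozygous replicate 1 was low. Its log2 difference was 0.64 (SE 0.61; limma adjusted p = 0.574), and -0.05 without heterozygous replicate 1. In both other tested probe sets of Wnt5a that array was also the lowest, at 4.40 and 3.77. Wnt2 was below 3 in all arrays, and Wnt4, Wnt7b and Wnt11 were above 3 in at most 2 arrays, at 3.38 or less.

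Frizzled receptors carry the Wnt signal into the cell, and 5 of 5 members were tested with 0 called (0 at an unadjusted limma p under 0.05). Of all tested genes 3.46% were called and 24.0% had an unadjusted limma p under 0.05. A count of 0 of 5 therefore does not set these receptors apart. Fzd7 had 11.28, 10.80 and 10.94 in null arrays, against 10.94, 11.01 and 10.97 in heterozygous arrays. These groups overlapped, and the log2 difference of 0.03 had a 95% interval of -0.41 to 0.47 (limma adjusted p = 0.936). The other 4 had differences from -1.47 to 1.68 and overlapping groups, with wider intervals.

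Fzd1 had 8.75, 9.68 and 5.79 in null arrays, against 4.57, 7.43 and 7.17 in heterozygous arrays, so null replicate 3 and heterozygous replicate 1 were the low arrays of their groups. Its log2 difference was 1.68 (SE 1.20; limma adjusted p = 0.445). Fzd8 differed by -1.47 (SE 0.81; limma adjusted p = 0.327), with its highest values, 8.87 and 8.07, in heterozygous replicates 3 and 2. Fzd4 differed by -0.43 (SE 0.33; limma adjusted p = 0.484). Fzd2 differed by -0.34 (limma adjusted p = 0.725) in the probe set with the highest mean, which overlapped. Its other 2 probe sets gave -0.84 (no overlap) and -0.67 (limma adjusted p = 0.144 and 0.265). The first of these had an unadjusted limma p of 0.0214, so the count of 0 above depends on the probe set.

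Of the Ror tyrosine kinases, Ror2 was tested. It had 8.60, 7.72 and 7.92 in null arrays, against 7.77, 8.69 and 8.03 in heterozygous arrays. The groups overlapped throughout, with a log2 difference of -0.08 (95% interval -0.90 to 0.73; limma adjusted p = 0.908). Ror1 was above 3 in heterozygous replicate 3 alone, at 3.44.

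Inside the cell, Ctnnb1, which encodes beta-catenin, had 12.69, 12.58 and 12.60 in null arrays, against 12.53, 12.71 and 12.89 in heterozygous arrays. The heterozygous arrays lay on both sides of the null ones. The log2 difference was -0.09 (95% interval -0.49 to 0.32; limma adjusted p = 0.793), and the 2 other probe sets gave -0.22 and -0.11. Tcf7l2, a TCF factor, differed by 0.14 (SE 0.54; limma adjusted p = 0.904). In each of its 4 probe sets, and in each of the 3 of Ctnnb1, heterozygous replicate 1 was the lowest of the 6 arrays and heterozygous replicate 3 the highest. Lef1, the LEF factor, differed by 0.73 (SE 0.36; limma adjusted p = 0.285), with 4.93, 4.26 and 3.58 in null arrays, against 3.55, 3.78 and 3.25 in heterozygous arrays.

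Feedback targets are genes that beta-catenin induces and that dampen or mark its activity. Of the 4 members grouped here under this role, Nkd2, which binds Dishevelled, was the 1 above the minimum. It had 3.85, 2.82 and 4.25 in null arrays, against 3.31, 3.25 and 2.95 in heterozygous arrays. The groups overlapped (log2 difference 0.47, SE 0.38; limma adjusted p = 0.502). Axin2, the scaffold most used to read out the pathway, had 2.27, 2.31 and 2.22 in null arrays, against 1.89, 2.23 and 3.76 in heterozygous arrays. Only heterozygous replicate 3 was above 3. Nkd1 lay between 2.77 and 3.03 and Sp5, a transcription factor, between 1.74 and 2.04. The 12 untested members ranged from 1.14 to 3.76, and 6 of them reached 3 in at least 1 array. At this signal a difference in them could not be shown.

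**Figure D2:**
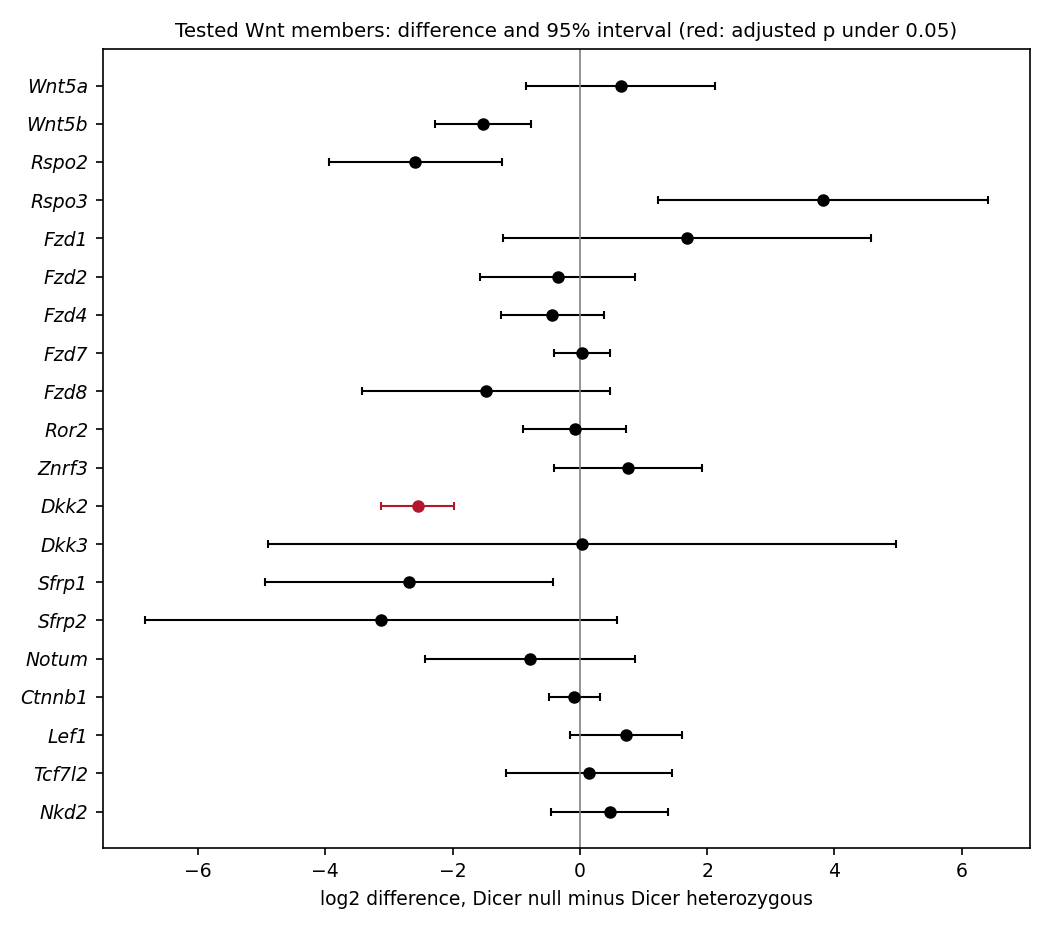
Log2 difference (Dicer null minus Dicer heterozygous) of the 20 tested members with limma's 95% interval, in order of role from ligands to feedback targets. The interval of Dkk2 (red) runs from -3.12 to -1.98, and those of Fzd7 and Ctnnb1 are narrow around 0.

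As a list, 5 of 20 tested members (25.0%) had groups that did not overlap, 1 higher and 4 lower, where 32.2% of all tested genes did (14.9% higher, 17.2% lower). Likewise 5 (25.0%) had an unadjusted limma p under 0.05, against 24.0% of all tested genes. The median log2 difference was -0.085 over the members and -0.01 over all tested genes. In 4 of the 20 (Rspo3, Sfrp1, Sfrp2 and Notum) a group mean lay under 3, so they were tested only through the group where they were high, and the counts are a description.

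The members also varied inside the groups. The median range over 3 arrays was 1.13 among null and 1.78 among heterozygous arrays for the members, and 0.44 and 0.61 for all tested genes. In null arrays 9 of 20, and in heterozygous arrays 10 of 20, had a range larger than that of 90% of tested genes. This is a description with no test. Null replicate 2 had the lowest value of the 6 arrays for 9 of 20 members and heterozygous replicate 1 for 7. Heterozygous replicate 3 had the highest for 7.

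**Figure D3:**
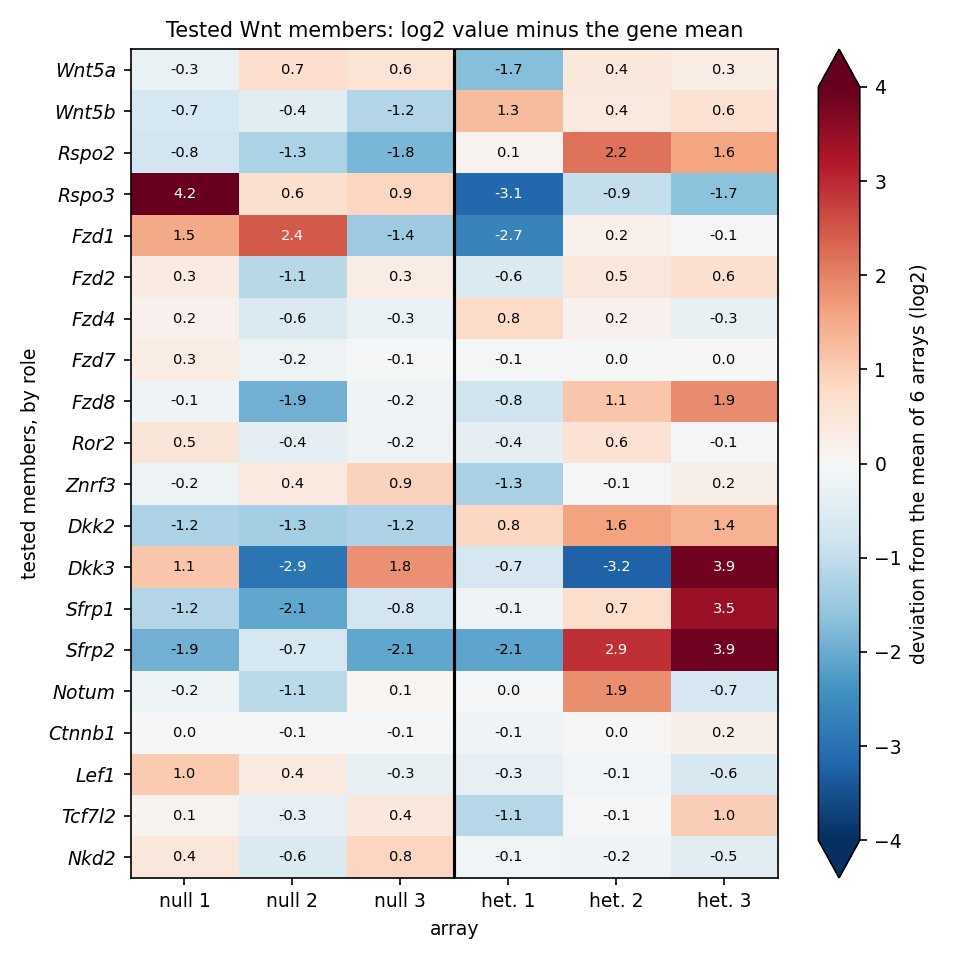
Deviation of each tested member from its mean over the 6 arrays (log2; red above, blue below), with the Dicer null arrays left of the line and the Dicer heterozygous arrays right of it. Rows such as Dkk3, Sfrp2 and Fzd1 vary within a group, and Dkk2 splits at the line between the groups.

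The rest of the pathway was read from a list of 123 other genes, of which 120 had a probe set and 92 were tested. Limma called 7 of the 92 (7.61%), 1 higher and 6 lower, against 3.46% of all tested genes. Of these, Prickle2, Invs and Nfatc2 came from the planar polarity and calcium branch, and the others from different roles. In that branch 3 of 22 tested genes (13.64%) were called and 11 (50.0%) did not overlap. Over the whole list, 28 of 92 (30.4%) had an unadjusted limma p under 0.05, against 24.0% of all tested genes. The groups did not overlap in 34 (37.0%), against 32.2%. The count depended on the arrays used. Leaving out heterozygous replicate 1 gave 3 of 92 (2.35% of all tested genes called), heterozygous replicate 3 gave 6 (4.07%), null replicate 1 gave 2 (0.937%) and null replicate 3 gave 1 (0.324%). Leaving out heterozygous replicate 2 or null replicate 2 gave 0 in limma, where 0.569% and 0.271% of all tested genes were called. At an unadjusted p under 0.05 there were 24 and 27 of 92 in those fits, beside 2249 and 2065 of all 11425. Over these 6 fits the log2 difference of Porcn ran from -2.22 to -1.88, that of Nlk from 1.20 to 1.38 and that of Invs from -1.33 to -1.12. Apcdd1 ran from -1.69 to -1.31, Prickle2 from -6.08 to -4.36, Nfatc2 from -2.71 to -2.01 and Ccn5 from -4.69 to -3.58. Signs held, but most calls were lost. Porcn and Ccn5 were called in 3 of the 6 fits, Apcdd1, Nlk, Prickle2 and Invs in 1 each, and Nfatc2 in 0.

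Porcn, the acyltransferase that adds the lipid to Wnt proteins, fell. It had 4.14, 4.23 and 4.82 in null arrays, against 6.37, 6.36 and 6.48 in heterozygous arrays (log2 difference -2.01, SE 0.22; limma adjusted p = 0.0182). Apcdd1, a membrane inhibitor of Wnt signalling, fell by 1.49 on the log2 scale (SE 0.27; limma adjusted p = 0.0454), with 10.50, 10.95 and 10.34 in null arrays, against 11.69, 12.13 and 12.44 in heterozygous arrays. Its 6 tested probe sets all differed downwards, from -2.42 to -1.19, and 3 of them passed.

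Nlk, a kinase that phosphorylates TCF/LEF factors, was the 1 that rose. It had 11.50, 11.67 and 11.82 in null arrays, against 10.23, 10.33 and 10.60 in heterozygous arrays (log2 difference 1.28, SE 0.18; limma adjusted p = 0.0285). Its other 2 probe sets gave 1.41 and 1.64 (limma adjusted p = 0.048 and 0.0582). No null value of Nlk lay below a heterozygous one.

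Ccn5, a matricellular protein known as a Wnt-induced gene, fell, with 5.06, 3.42 and 3.42 in null arrays, against 7.31, 7.79 and 9.24 in heterozygous arrays (log2 difference -4.15, SE 0.65; limma adjusted p = 0.0356). Prickle2, a planar polarity protein, had 5.25, 2.37 and 1.81 in null arrays, against 8.0, 8.33 and 8.17 in heterozygous arrays (log2 difference -5.02, SE 0.87; limma adjusted p = 0.043). With 2 null arrays under 3, the difference was -4.42 when values under 3 were set to 3. Invs, a ciliary protein that favours the polarity branch over beta-catenin, fell by 1.21 (SE 0.17; limma adjusted p = 0.0289), and Nfatc2, a calcium-regulated transcription factor, by 2.36 (SE 0.39; limma adjusted p = 0.0386) on the log2 scale. The second tested probe set of Nfatc2, near the minimum, differed by 0.10.

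Of the genes that did not pass, the named ones without overlap and with the largest differences, beside Lgr6, were Frzb, Nfatc4, Prickle1, Tle4 and Sox9. Frzb, a secreted antagonist of the Sfrp family, differed by 3.19 (SE 0.94; limma adjusted p = 0.118), the opposite sign to Sfrp1 and Sfrp2. Prickle1, the paralogue of Prickle2, differed by 2.97 (SE 0.69; limma adjusted p = 0.0749). Tle4, a co-repressor of TCF factors, gave 2.08 (SE 0.43), Nfatc4 -3.06 (SE 0.76) and the cartilage regulator Sox9 -1.62 (SE 0.37), with limma adjusted p = 0.0582, 0.0855 and 0.0715. Of 24 tested genes of the destruction complex and its partners, 0 were called by limma, against 3.46% of all tested genes, and 4 (16.7%) had an unadjusted p under 0.05, against 24.0%. A count of 0 among 24 is near that background. By role, the share with an unadjusted limma p under 0.05 ran from 12.5% (nuclear co-factors, 2 of 16) to 75.0% (other secreted modulators, 3 of 4).

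**Figure D4:**
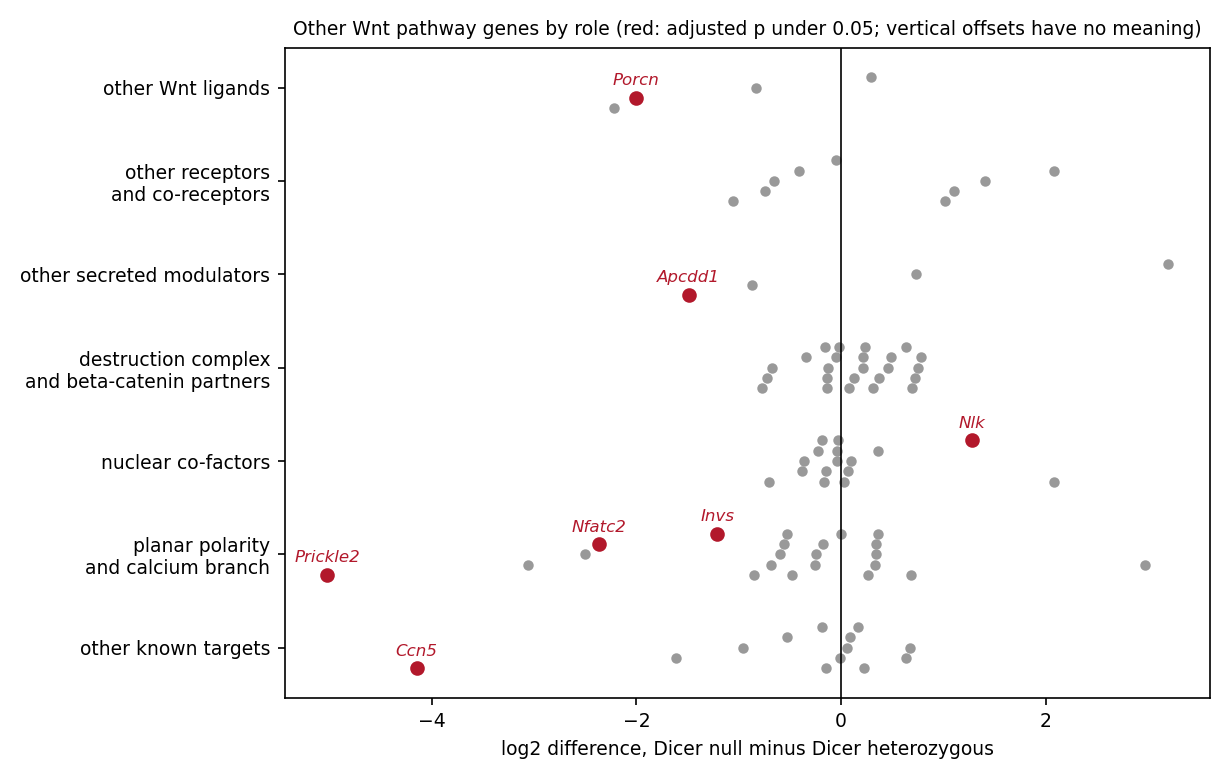
Log2 difference (Dicer null minus Dicer heterozygous) of the 92 tested other pathway genes, 1 point per gene and 1 line per role. The 7 called genes are red and named, with 6 left of 0 and Nlk right of it.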

How the data were processed

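The 6 arrays are Affymetrix 3′ expression arrays hybridised with biotin-labelled cRNA. The deposited values are the authors' log2 expression values, 1 per probe set and array, made with GCRMA 2.20.0 in R 2.11.1 per the submitters' processing notes. GCRMA corrects background by probe sequence, quantile normalizes between arrays and summarises probes. Its settings and chip definition file were not given in the sources used here. The log2 scale was read from the method and the range of 0.40 to 14.18. Quantile normalization removes an overall shift between groups, and values under about 3 rest on the background model.

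Samples were grouped by genotype in their titles. The platform annotation given for this work ties 34945 of 45037 probe sets to 1 symbol, 932 to several and 9160 to none, and only the first kind was named. Of these, 34741 matched GRCm38.p6 by Entrez ID, with 0 symbols changed.

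The 24385 probe sets with a mean of at least 3 were fitted with limma 3.58.1 in R 4.3.3 (lmFit, eBayes, two-sided, no block) and adjusted by Benjamini-Hochberg over all of them at 0.05, which called 756. The fit was tested on simulated data. A gene was read from its probe set with the highest mean. Named genes were the members, the called genes of the other pathway list and up to 6 more of it with the largest differences and no overlap. Values by array were set for called members, those without overlap that differed by at least 1, and the brightest of each role; those of Sfrp2, Dkk3, Fzd1, Lef1 and Axin2 were added after values were seen. The rule's bounded folds are given instead as log2 differences with values under 3 set to 3. The members and lists were chosen with earlier results of these data known. Alternatives were other minimums, moderation, scaling, array weights, a floor, the replicate number as a block, other probe set choices and each array left out. Figures used matplotlib 3.10.9.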

Additional observations from a re-analysis of the deposited data

How the results depend on the processing

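All 18 alternatives were planned. Unless stated, the cause was not tested. Limma called 1 member and 7 other pathway genes. With a variance trend these counts were 2 (Rspo2 added) and 11 (4.77% of all tested genes called, against 3.46%), and with gene-by-gene array weights 3 (Rspo2 and Wnt5b added) and 22, where 13.1% of all tested genes were called. Without a minimum the pathway count was 3, with 18193 genes tested in place of 11425 and 1.74% called. Ordinary t statistics gave 0 and 0 (4 and 27 at an unadjusted p under 0.05, 0 genes called in all). Without 1 array the counts ran from 0 to 3 members and from 0 to 6 pathway genes, while 0.271% to 4.07% of all tested genes were called. The count of 3 members came without heterozygous replicate 1, where 2.35% of all tested genes were called. The replicate numbers were not shown to pair the samples: the correlation of deviations was -0.06, 0.11 and 0.24 for numbers 1 to 3, and 3 of 6 arrays had their own number as best match. With the number as a replicate block 0 members and 0 pathway genes were called in limma (6 and 34 at an unadjusted p under 0.05; 0.639% of all tested genes called), with Dkk2 at an adjusted p of 0.0538. Dkk2 was called in 14 of 18 alternatives, with differences of -2.77 to -2.38. Its adjusted p ran from 0.00303 (limma) to 0.0844 (ordinary t statistics). Some of these alternatives could not test the call. Dkk2 has a single probe set, so the other probe set choices reused its main fit, and the floor left its values unchanged. Signs turned for 7 tested members. Without 1 array the differences ran from -0.045 to 1.01 for Wnt5a, -0.71 to 0.13 for Fzd2, -0.10 to 0.14 for Fzd7, -0.34 to 0.18 for Ror2, -1.57 to 1.97 for Dkk3, -0.18 to 0.003 for Ctnnb1 and -0.40 to 0.67 for Tcf7l2. Signs held but values moved by over 1.5 times for Fzd1 (0.77 to 2.83), Fzd4 (-0.69 to -0.15), Fzd8 (-2.24 to -0.88), Znrf3 (0.29 to 1.06), Notum (-1.31 to -0.04), Lef1 (0.39 to 1.07), Nkd2 (0.17 to 0.88), Sfrp1 (-3.42 to -1.62) and Sfrp2 (-4.96 to -1.96). The median over tested members ran from -0.43 to 0.115 there. With the most variable probe set Dkk3 gave -0.24. Signal over background limits what the 12 dim members can show.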
